A study of Homo sapiens with 6 samples.

Results

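The zinc finger genes of the long arm of chromosome 19 (19q) were examined in the RNA of human retinal pigment epithelium (RPE) cells with and without POLDIP2. Members were chosen by name and position: protein-coding genes of GENCODE release 44 (GRCh38) whose symbols start with ZNF and whose start on chromosome 19 lies above 28 Mb. A mean level of 10 normalised counts or more, taken over all 6 libraries, was also required. The annotation holds 164 such genes and 161 of them had a row in the table; ZNF546, ZNF780B and ZNF780A were not used here. Of the 161, 158 passed the level of 10, among 14684 genes of all kinds that did. The 3 genes outside were ZNF835 (mean 4.58), ZNF610 (4.04) and ZNF541 (0.662), and those nearest inside were ZNF540 (11.1), ZNF534 (12.7) and ZNF135 (13.7). The rule used the mean over both lines and no difference between them, but 2 members, ZNF135 and ZNF582, had a mean under 10 in POLDIP2 KO and passed only through WT.

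ARPE-19 is an established human line derived from the RPE, and both groups were sampled at day 3 as 3 libraries each. WT is ARPE-19 itself. The POLDIP2 KO line is ARPE-19 that received SpCas9 and a guide RNA to POLDIP2's coding sequence by lentivirus, and was then selected with puromycin and expanded. The methods describe no cloning of single cells and the samples hold no line transduced with a control guide, so loss of POLDIP2 cannot be told apart from transduction and selection. The libraries are polyadenylated, stranded and single-end, and the labels call the 3 of a line biological replicates without saying at which step they were separated, so p values measure the spread between these libraries.

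C2H2 zinc finger genes encode proteins with arrays of short finger units, each folded around a zinc ion, that bind DNA. Many of those on chromosome 19 arose by tandem duplication and stand in clusters. A large share also carry a KRAB domain, which binds TRIM28 and through it the histone methyltransferase SETDB1, so that the bound DNA receives H3K9 trimethylation and is silenced. Known targets are mostly transposable elements, and the zinc finger genes themselves carry this mark over their last exons, placed there in part through ZNF274, a member of the group.

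Depth was 31532797 to 45795509 reads per library, recovered from the steps of the normalised counts, and 3 reads, taken as the floor of detection, equal 2.44 to 3.69 normalised counts. POLDIP2 itself was lower in every POLDIP2 KO library than in every WT library, with a log2 fold change of -1.97 (SE 0.125, adjusted p = 0.010 by limma), so each library followed its label. Of 12 RPE markers 9 reached a mean of 10, and 0 of these had an unadjusted limma p under 0.05 between the lines. KRT8, KRT18 and MITF were abundant, whereas RPE65 and TTR were at 0 in all 6 libraries and TYR was at 2.98 or less. The markers of leukocytes, endothelium, other epithelium, muscle and neurons reached at most 7.38 in any library, and MYOD1 was at 0 in all of them. The leukocyte marker PTPRC was at 0 in all 3 WT libraries and at 1.23, 3.26 and 6.95 in POLDIP2 KO, below the level for testing, and its part in the results was not tested. Replicate number also moved with many genes: 10.4% of the genes tested lay lower and 12.9% higher in replicate 1 than in replicates 2 and 3 at an unadjusted limma p under 0.05.

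Across the 158 members the fold changes leaned towards lower expression in POLDIP2 KO, in many members by a small amount and in a few by a large one. In all, 108 members (68.4%) had a log2 fold change below 0, against 50.1% of all genes tested, and the median was -0.11, against -0.00029. The study used DESeq2 with an adjusted p under 0.05 and a fold change over 1.5. At these thresholds limma, the main test here, called 1 member lower and 0 higher, where the shares over all genes tested were 0.0885% and 0.0817%. That member was ZNF350. As these are bulk libraries, fewer cells that express a gene and less of its RNA per cell cannot be told apart. At an unadjusted limma p under 0.05, 14 members (8.86%) were lower and 1 (0.633%) was higher, against 3.47% and 3.00% of all genes tested. For 22 members (13.9%) all 3 POLDIP2 KO libraries lay below all 3 WT libraries, against 5.44% of all genes, and for 3 members (1.90%) all lay above, against 5.46%. All 14 members lower at an unadjusted p under 0.05 were among the 22. ZNF135 and ZNF582, which reached the level for testing only through WT, are counted in the 108, the 14 and the 22. A mean of at least 50, which removes both, left 146 members. Of these, 12 were lower and 0 higher at an unadjusted limma p under 0.05. Without overlap, 18 were lower and 3 higher. Over all genes the shares are given by range, for means of 50 to 200, 200 to 500, and 500 or more. At an unadjusted limma p under 0.05, 6.55%, 4.26% and 2.29% were lower. Without overlap, 8.87%, 5.87% and 3.94% were lower, and 6.49%, 5.72% and 4.99% were higher. The share higher at that p in these ranges is not given. With 3 libraries a line, the smallest p of an exact two-sided permutation test is 0.1, so the test of a single member borrows its estimate of the variance from other genes.

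The count of calls depended on the tool. DESeq2, the tool of the study, was run here on the recovered reads. It called 7 members lower and 0 higher, and 0.933% and 0.756% of all genes tested. At its unadjusted p under 0.05, 16 members were lower and 0 higher (3.70% and 3.38% of all genes). The 7 were ZNF536, ZNF569, ZNF570, ZNF350, ZNF677, ZNF772 and ZNF135, the last of which reached the level for testing only through WT. With the replicate block DESeq2 also called 7, but without ZNF135 and with ZNF471. On the same reads, edgeR's quasi-likelihood test called 0 in either direction (0.0545% and 0.0613% of all genes), with 14 members lower and 0 higher at an unadjusted p under 0.05 (3.46% and 3.06% of all genes). When limma took the replicate number as a block, 20 members were lower and 1 higher at an unadjusted p under 0.05 (5.58% and 5.48% of all genes), and 1 was called lower and 0 higher (0.0885% and 0.116%). The member called under the block was ZNF677, and ZNF350 was not.

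**Figure D1:**
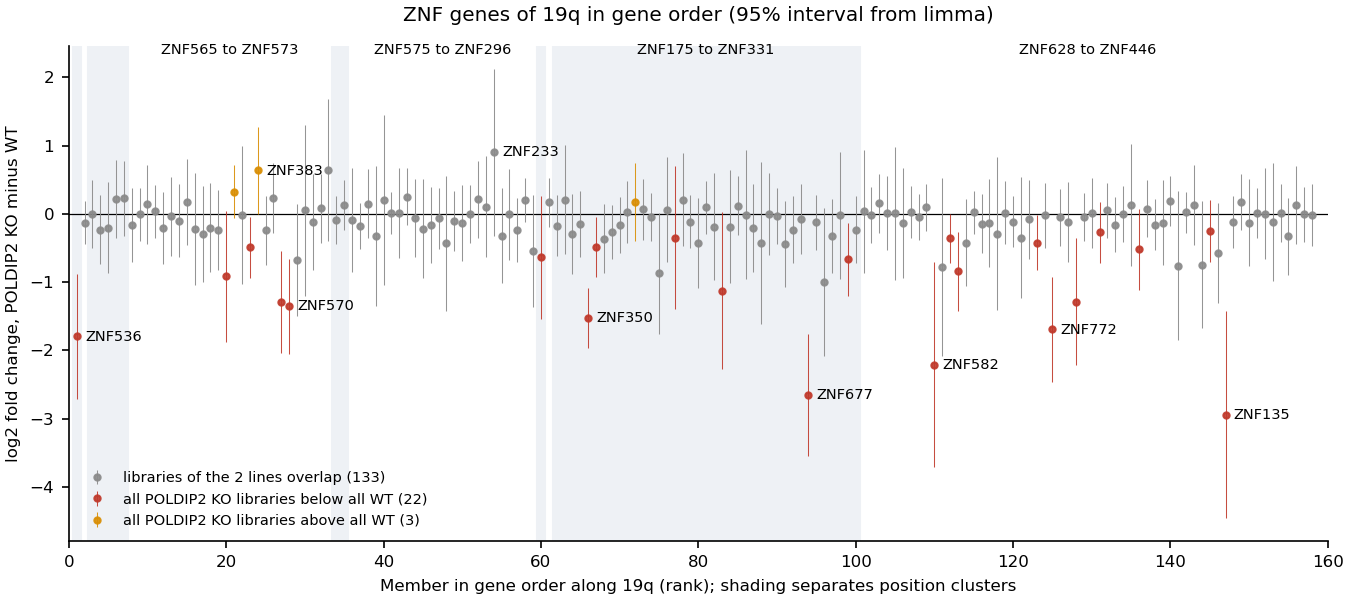
Log2 fold change of POLDIP2 KO against WT (vertical axis) for the 158 members in gene order along 19q (horizontal axis, rank), with 95% intervals from limma. Colours show the 22 members whose POLDIP2 KO libraries all lay below WT, the 3 whose libraries all lay above, and the 133 that overlapped. Over all genes tested 5.44% lay below and 5.46% above. The cluster from ZNF575 to ZNF296, with 24 members, holds none of the coloured points.

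ZNF350, also known as ZBRK1, is a KRAB zinc finger repressor first described as a partner of BRCA1. It lies on the minus strand at chr19:51964340-51986856, and its canonical protein has 532 residues with 8 fingers of the pattern counted here. The normalised counts were 340.1, 304.0 and 372.8 in the WT libraries (replicates 1 to 3) and 125.5, 101.8 and 124.1 in the POLDIP2 KO libraries, in the same order. The groups were therefore far apart and each group was narrow, with means of 339.0 ± 34.4 and 117.1 ± 13.3 (SD, n = 3). Expression in POLDIP2 KO was 0.346 of that in WT, a log2 fold change of -1.53 (SE 0.186, adjusted p = 0.0451 by limma). The call was close to its threshold: the adjusted p was 0.054 with the replicate block, 0.0446 to 0.0587 over the other limma settings, 0.0777 with edgeR and 1.01e-08 with DESeq2, and 0.0942 to 0.188 when any 1 library was left out. The log2 fold change stayed between -1.60 and -1.43 when a library was left out. The genes on either side showed smaller differences. ZNF613, the member before it in position, had a log2 fold change of -0.14 (adjusted p = 1.0 by limma) with overlapping libraries. ZNF615, on the other side, had 280.6, 362.2 and 365.4 in WT and 206.7, 255.6 and 256.2 in POLDIP2 KO. Its libraries did not overlap, with a log2 fold change of -0.48 (adjusted p = 0.699 by limma).

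ZNF677, a KRAB zinc finger gene known for promoter methylation in several tumours, had a larger fold change from a lower level. Its normalised counts were 245.6, 136.5 and 194.2 in the WT libraries (replicates 1 to 3) and 45.5, 22.8 and 22.8 in POLDIP2 KO. Replicate 1 was the highest library of each line, and the highest POLDIP2 KO library was still below the lowest WT library. The mean in POLDIP2 KO was 0.158 of that in WT, a log2 fold change of -2.66 (SE 0.378). The limma adjusted p was 0.0752 without the replicate block and 0.0477 with it, 0.111 with edgeR and 4.06e-07 with DESeq2. ZNF677 lies at chr19:53235381-53254898 on the minus strand.

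ZNF135, at chr19:58059239-58086310 on the plus strand, had the largest fold change of the members and one of the lowest levels. Its recovered reads were 38, 17 and 21 in the WT libraries (replicates 1 to 3) and 3, 1 and 3 in POLDIP2 KO, that is 35.9, 17.1 and 21.9 normalised counts against 3.69, 0.814 and 2.98. All 3 POLDIP2 KO libraries were at or below 3 reads, so the fitted log2 fold change of -2.94 (SE 0.644, adjusted p = 0.230 by limma) depends on the pseudocount. From the summed reads, 7 against 76, the ratio was 0.091 with an exact 95% interval of 0.0354 to 0.197, which covers counting error only. The DESeq2 adjusted p was 0.0317 without the replicate block and 0.0563 with it. Its neighbours in gene order overlapped between the lines: ZNF606 had a log2 fold change of -0.57 (adjusted p = 0.939 by limma), and ZNF329 had one of -0.12 (adjusted p = 1.0 by limma). ZNF135 also shares exon positions on the other strand with ZSCAN18.

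The sequence just before the first exon is shown for these 3 genes and for ZNF772, because ZNF350 and ZNF135 are named by the choice of genes and ZNF677 and ZNF772 had the smallest limma p values after ZNF350, and because methylation of CpG sites in such promoters is known for some ZNF genes, ZNF677 among them. The sequences are RefSeq promoter windows on GRCh38, cut where an annotated exon begins and written 5′ to 3′ along the gene, with each CpG in capitals. ZNF350 is at chr19:51986857-51987090 (minus strand), ZNF677 at chr19:53254899-53255123 (minus), ZNF135 at chr19:58058989-58059238 (plus) and ZNF772 at chr19:57477571-57477648 (minus).
ZNF350: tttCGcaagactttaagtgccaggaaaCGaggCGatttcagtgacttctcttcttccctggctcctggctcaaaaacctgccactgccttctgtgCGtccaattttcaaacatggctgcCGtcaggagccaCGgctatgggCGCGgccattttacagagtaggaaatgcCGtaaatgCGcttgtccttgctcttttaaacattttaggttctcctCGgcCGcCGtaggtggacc
ZNF677: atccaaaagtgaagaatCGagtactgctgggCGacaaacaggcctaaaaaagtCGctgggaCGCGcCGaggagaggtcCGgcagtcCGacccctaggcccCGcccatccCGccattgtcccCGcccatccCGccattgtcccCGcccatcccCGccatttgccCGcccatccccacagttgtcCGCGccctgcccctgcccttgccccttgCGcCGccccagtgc
ZNF135: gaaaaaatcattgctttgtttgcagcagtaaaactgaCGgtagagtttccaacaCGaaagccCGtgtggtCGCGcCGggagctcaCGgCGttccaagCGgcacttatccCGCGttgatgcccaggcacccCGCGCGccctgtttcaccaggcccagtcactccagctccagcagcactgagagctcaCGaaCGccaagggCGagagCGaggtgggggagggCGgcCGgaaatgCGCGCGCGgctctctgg
ZNF772: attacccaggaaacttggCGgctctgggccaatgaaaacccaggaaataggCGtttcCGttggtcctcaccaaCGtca
These runs hold 13 CpG in 234 bases for ZNF350, 19 in 225 for ZNF677, 24 in 250 for ZNF135 and 4 in 78 for ZNF772. A RefSeq window of 300 bases (250 before and 50 after the RefSeq start) was found for 139 of the 158 members. The window nearest to the annotated start was taken. For 105 members its RefSeq start lay within 100 bases of the annotated one, and for ZNF420 it lay 70365 bases away. The 139 windows held a median of 23 CpG, with a range of 2 to 42, against a median of 14 over all 35116 windows, 96.0% of which hold at least 1. The members lower at an unadjusted p under 0.05 had a median of 21 CpG (13 with a window), and the other members had 23 (126 with a window). Methylation was not measured in these samples.

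The other members called by DESeq2 were ZNF772, ZNF536, ZNF570 and ZNF569. ZNF772 had 379.8, 221.7 and 314.3 in the WT libraries (replicates 1 to 3) and 127.9, 62.7 and 95.3 in POLDIP2 KO. The log2 fold change was -1.69 (SE 0.328, adjusted p = 0.184 by limma). In both lines replicate 1 was highest and replicate 2 lowest, and the limma adjusted p was 0.0513 with the replicate block. ZNF536, a repressor of neuronal differentiation that stands alone at the start of the region, had 176.7, 147.5 and 170.2 in WT against 25.8, 56.2 and 69.5 in POLDIP2 KO. Here replicate 1 was the lowest POLDIP2 KO library, and the log2 fold change was -1.79 (SE 0.387, adjusted p = 0.226 by limma).

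ZNF569 and ZNF570 are neighbours on opposite strands whose outermost annotated starts lie 1690 bases apart with overlapping exons, and both were lower. ZNF570 had 149.3, 144.5 and 125.3 in WT and 77.5, 42.3 and 47.7 in POLDIP2 KO, a log2 fold change of -1.35 (SE 0.295, adjusted p = 0.229 by limma). ZNF569 had 225.8, 146.5 and 173.3 in WT and 104.6, 52.9 and 68.5 in POLDIP2 KO, a log2 fold change of -1.29 (SE 0.317, adjusted p = 0.292 by limma). Neither gene's libraries overlapped between the lines. The libraries are stranded, but the strand setting used in counting is not given in the sources used here, so reads of overlapping genes on opposite strands may not be fully separated.

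The other 7 members lower at an unadjusted p under 0.05 were ZNF582, ZNF471, ZNF549, ZNF813, ZNF615, ZNF585B and ZNF17. ZNF582, a gene whose promoter methylation is used as a marker in cervical lesions, had 47.2, 39.1 and 14.6 in WT against 7.38, 8.14 and 2.98 in POLDIP2 KO. Its WT libraries were spread widely, and the log2 fold change was -2.21 (SE 0.635, adjusted p = 0.422 by limma). ZNF471 had 232.4, 367.2 and 380.1 in WT against 153.8, 178.3 and 204.6 in POLDIP2 KO, a log2 fold change of -0.84 (adjusted p = 0.438 by limma), and DESeq2 called it with the replicate block (adjusted p = 0.0378) but not without it (0.103). ZNF549 had 164.4, 76.3 and 99.2 against 54.1, 29.3 and 51.6, a log2 fold change of -1.29 (adjusted p = 0.496 by limma). In ZNF17 the difference was small but the libraries were close together, with 197.4, 195.7 and 194.2 in WT and 152.6, 143.3 and 142.0 in POLDIP2 KO, a log2 fold change of -0.42 (adjusted p = 0.742 by limma). The remaining 3 had log2 fold changes of -0.66 (ZNF813), -0.49 (ZNF585B) and -0.48 (ZNF615), with limma adjusted p values of 0.585, 0.705 and 0.699. All 14 lower members were lower in all 3 same-numbered pairs of libraries, which follows from their lack of overlap and adds nothing to it. Over all members, 48 (30.4%) were lower in all 3 pairs and 12 (7.59%) were higher, against 15.7% and 17.0% of all genes tested. All these counts include the genes without overlap.

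**Figure D2:**
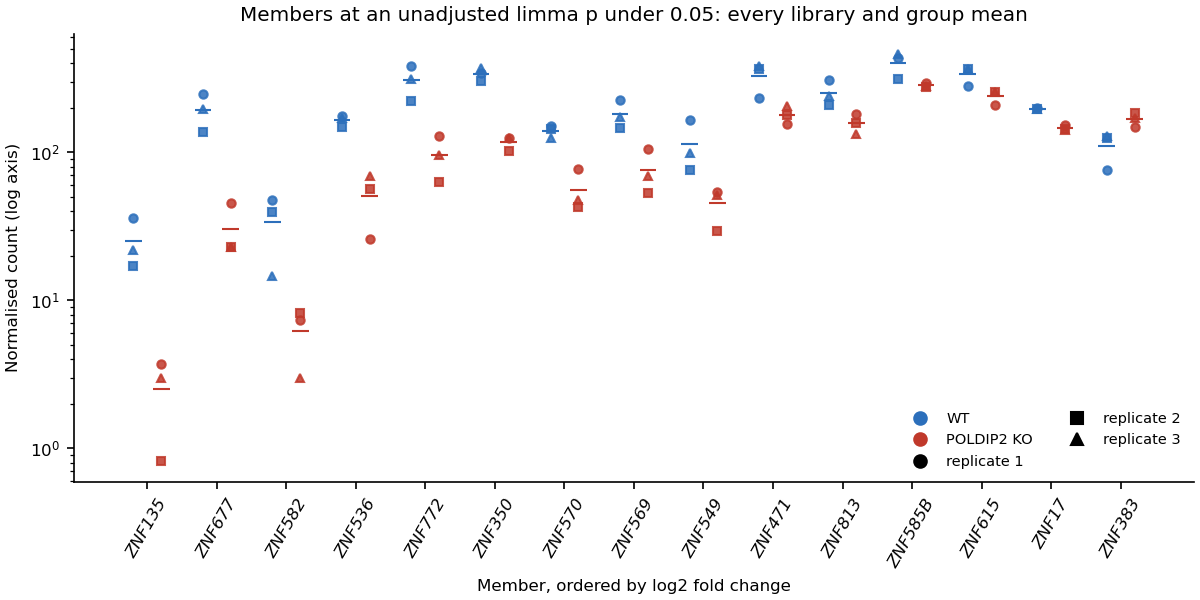
Normalised count (log axis) of the 15 members at an unadjusted limma p under 0.05, ordered by log2 fold change, with 1 symbol for each replicate number and a bar at the mean of each line (n = 3). The POLDIP2 KO points lie below all WT points in the 14 members from ZNF135 to ZNF17 and above them in ZNF383.

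No member passed the adjusted limma test on the higher side, and 3 were higher without overlap. ZNF383 had 75.6, 124.4 and 129.5 in WT and 147.6, 184.0 and 170.8 in POLDIP2 KO, so the lines did not overlap, with a log2 fold change of 0.64 (SE 0.269, adjusted p = 0.771 by limma). Its start lies 227 bases from that of ZNF585B on the other strand, which was lower, with 433.6, 311.0 and 459.4 in WT against 291.6, 273.5 and 281.0 in POLDIP2 KO. The exons of the pair overlap, and its members stood on opposite sides of 0. The 227 bases separate the outermost annotated ends. The nearest RefSeq start lay 7617 bases from that end for ZNF585B and 288 bases for ZNF383, so a shared start region is not shown. ZNF420, which binds p53 and restrains it, had 195.6, 237.8 and 221.4 in WT and 267.0, 258.9 and 294.9 in POLDIP2 KO, a log2 fold change of 0.33 (adjusted p = 0.900 by limma). The third without overlap was ZNF836, with a log2 fold change of 0.18 (adjusted p = 1.0 by limma). The largest positive value, 0.90 for ZNF233, came from WT libraries of 75.6, 38.1 and 17.8 against 82.4, 63.5 and 67.5 in POLDIP2 KO, which overlapped (adjusted p = 0.955 by limma). The other members with the smallest p on this side, ZNF180, ZNF573, ZNF155, ZNF587B, ZNF473, ZNF527 and ZNF274, had log2 fold changes of 0.17 to 0.64 with overlapping libraries. ZNF274, which helps to place H3K9 trimethylation on zinc finger genes, had 802.1, 593.0 and 699.6 in WT and 923.9, 687.1 and 751.7 in POLDIP2 KO, a log2 fold change of 0.17 (95% interval -0.23 to 0.58). ZNF473, which takes part in the processing of histone pre-mRNA, had one of 0.17 (95% interval -0.20 to 0.53).

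By position, neighbouring starts over 1 Mb apart were taken to divide the genes into 11 clusters, of which 10 had a member and 4 had more than 20. The cluster from ZNF175 to ZNF331 (chr19:51571283-53580269), which contains ZNF350 and ZNF677, had 31 of 39 members below 0 and a median log2 fold change of -0.19. The cluster from ZNF628 to ZNF446 (chr19:55476617-58481230), which contains ZNF135, ZNF582 and ZNF772, had 38 of 58 below 0 and a median of -0.10. In the cluster from ZNF565 to ZNF573 (chr19:36182276-37817300), 17 of 26 were below 0 with a median of -0.11. These 3 clusters, with 39, 58 and 26 of the 158 members, held 20 of the 22 without overlap on the lower side (6, 10 and 4). They held all 3 on the higher side (1, 0 and 2). ZNF135 and ZNF582, counted among the 38 and the 10, reached the level for testing only through WT. The cluster from ZNF575 to ZNF296 (chr19:43525497-45076478) had 15 of 24 below 0 and a median of -0.06, with 0 members without overlap in either direction. The 5 members from ZNF302 to ZNF792 had a median of -0.00047 and a range of -0.23 to 0.23, also with 0 without overlap. ZNF536 and ZNF114, in clusters with 1 member each, were the other 2 without overlap on the lower side. Over all genes tested, 5.44% were lower and 5.46% higher without overlap, and over all members 13.9% and 1.90%. Differences between clusters were not tested.

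The members were also described by level, from the mean over the 6 libraries. All 22 lower members without overlap had a mean under 500. Of the 29 members at 500 or more, 14 were below 0, the median log2 fold change was 0.01 and 0 were without overlap in either direction, where 3.94% of all genes at that level were lower without overlap and 4.99% higher. Of the 12 members with a mean of 10 to 50, 10 were below 0 and 4 were lower without overlap, with a median of -0.39. Without ZNF135 and ZNF582, which reached a mean of 10 only through WT, 8 of 10 in this range were below 0 and 2 were lower without overlap, with a median of -0.22. Of the 59 at 50 to 200, 44 were below 0 and 11 were lower without overlap, with a median of -0.17. Of the 58 at 200 to 500, 40 were below 0 and 7 were lower without overlap, with a median of -0.11. Over all genes in the same 3 ranges, 8.65%, 8.87% and 5.87% were lower without overlap, and the medians were -0.03, -0.03 and -0.02.

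**Figure D3:**
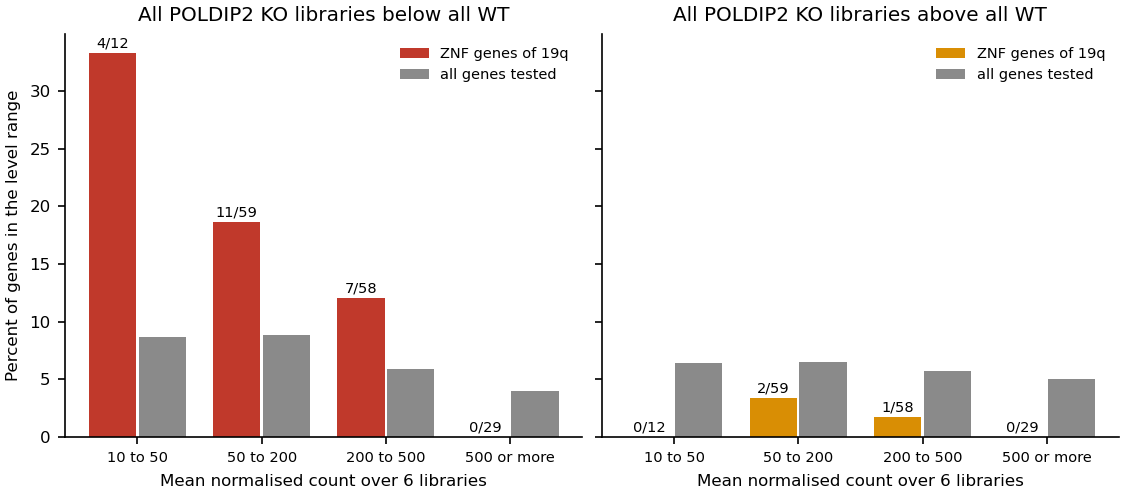
Percent of genes without overlap between the lines (vertical axes) by mean normalised count (horizontal axes), for the members (coloured bars, with counts above) and all genes tested (grey bars). On the lower side (left) the members' bars stand above the grey ones in the 3 ranges under 500 (ZNF135 and ZNF582 are 2 of the 4 in the lowest range) and are at 0 of 29 in the highest range, and on the higher side (right) they stand below them in every range.

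Per kb of exon, the most abundant member was ZNF146, a protein made almost wholly of zinc fingers, at a mean of 1068 normalised counts per kb. Its level did not differ beyond the spread, with a log2 fold change of -0.0054 (95% interval -0.39 to 0.38). Next in order were ZNF428 at 505.4 and ZNF581 at 394.0 per kb. In other clusters the most abundant members were ZNF480 (181.5 per kb), ZNF302 (162.4), ZNF507 (123.5) and ZNF574 (122.2). Their log2 fold changes were -0.05, -0.00047, -0.13 and -0.09, all with overlapping libraries. The lowest members were ZNF534 at 1.99 and ZNF135 at 2.14 per kb, and ZNF350, at 50.2 per kb, lay between. The 14 lower members had a median mean count of 149.7, against 244.0 in the other 144. Their median number of fingers was 13, against 12, with ranges of 8 to 21 and 0 to 29. Exons were shared with another gene on the same strand by 58 members, 5 of them among the 14, and with a gene on the other strand by 60, 8 of them among the 14. Over the 158 members the 95% interval of a log2 fold change had a median half-width of 0.558, and for 49 of them the whole interval lay within a 1.5-fold change either way.

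The same lean was compared with other gene groups as a description. The 75 ZNF genes of chromosome 19 that start at or below 28 Mb had a median log2 fold change of -0.18, with 70.7% below 0, and 15 (20%) were lower and 0 higher without overlap. This share, and the 18.7% lower at an unadjusted p under 0.05, stood above the members' 13.9% and 8.86%. The 231 ZNF genes of other chromosomes had a median of -0.06, with 65.8% below 0, and 15 (6.49%) were lower and 8 (3.46%) higher without overlap. The 367 other protein-coding genes of 19q had a median of -0.0056, with 51.2% below 0, and 25 (6.81%) were lower and 6 (1.63%) higher without overlap. Over all genes tested these shares were 5.44% and 5.46%. At an unadjusted limma p under 0.05, 3.03% of the 231 and 4.09% of the 367 were lower, against 3.47% of all genes tested. All of these groups share the same 6 libraries, and the differences between groups were not tested.

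**Figure D4:**
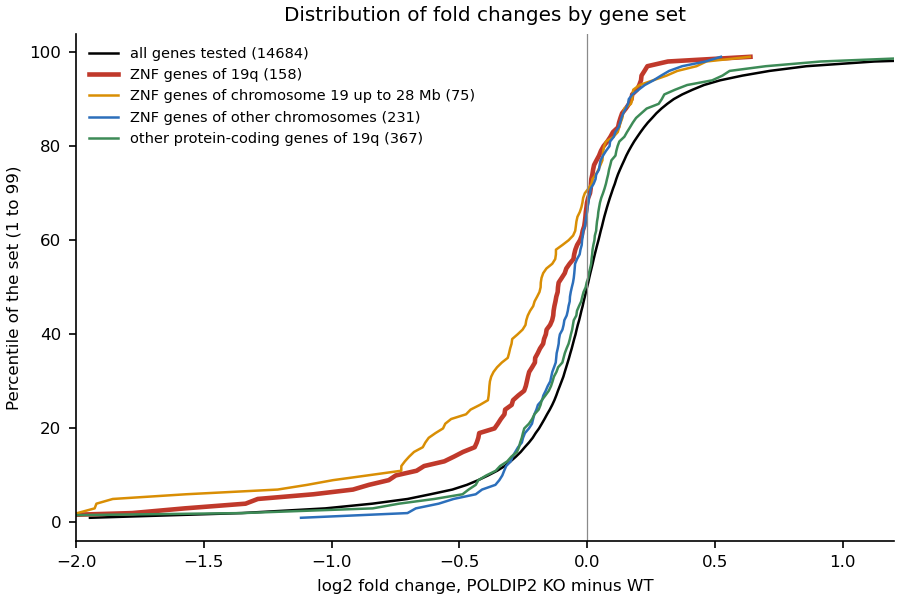
Percentiles 1 to 99 (vertical axis) of the log2 fold change of POLDIP2 KO against WT (horizontal axis) in the members, in other gene groups and in all genes tested. The members' curve (thick) crosses 0 at about 68.4% and has a median of -0.11, between the ZNF genes at or below 28 Mb (-0.18) and those of other chromosomes (-0.06).

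The replicate number was examined because the labels give both lines the numbers 1 to 3. Replicate 1 against the mean of replicates 2 and 3, with line in the same limma fit, gave 8 members lower and 20 higher at an unadjusted p under 0.05 (5.06% and 12.7% of the members), against 10.4% and 12.9% of all genes tested. At an adjusted p under 0.05 and a fold over 1.5, limma called 0 members in either direction, where it called 1.09% and 1.85% of all genes. DESeq2 called 0 lower and 2 higher (2.38% and 3.91% of all genes), and edgeR called 0 in both (0.708% and 1.63%). At an unadjusted p under 0.05, edgeR gave 9 lower and 19 higher (10.1% and 12.6% of all genes) and DESeq2 gave 5 and 13 (9.76% and 12.1%). ZNF528 and ZNF580, named after their values were seen, were the furthest by p. ZNF580 had 1218, 914.1 and 552.3 in the WT libraries (replicates 1 to 3) and 1131, 687.9 and 599.7 in POLDIP2 KO, a log2 difference of 0.80 (SE 0.146, adjusted p = 0.060 by limma). ZNF528 had 559.3, 343.2 and 267.3 in WT and 542.5, 322.4 and 332.6 in POLDIP2 KO, with a log2 difference of 0.80 (adjusted p = 0.065 by limma). Of the 14 members lower in POLDIP2 KO, 11 were higher in replicate 1 than in the mean of the other two, 4 of the 14 at an unadjusted p under 0.05, and of the other 144 members 65 were higher. ZNF350 was not among the 4, with a log2 difference of 0.09. The members' median difference between the lines was -0.13, -0.10 and -0.13 in pairs 1, 2 and 3, with 101, 94 and 104 members below 0.

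**Figure D5:**
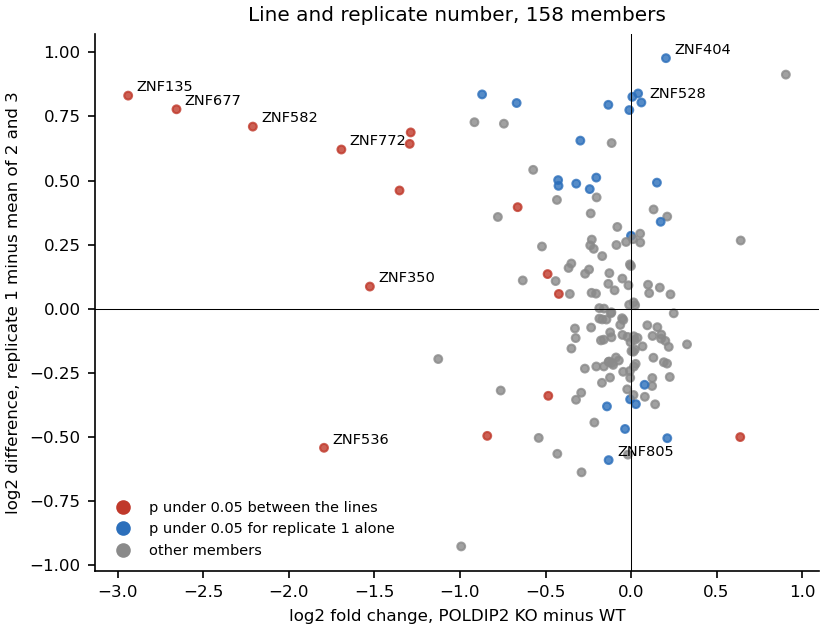
Log2 difference of replicate 1 from the mean of replicates 2 and 3 (vertical axis) against log2 fold change of POLDIP2 KO against WT (horizontal axis), 1 point for each of the 158 members. Of the 14 members lower at an unadjusted p under 0.05 (red, left), 11 stand above the horizontal zero line, among them ZNF135 and ZNF677, while ZNF536 stands below it.

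The genes of the machinery through which KRAB zinc finger proteins act, and of enzymes that place or remove silencing marks, were read from a list of 30. The list includes KDM4A, KDM4B and KDM4C, which remove H3K9 methylation, and TET1, TET2 and TET3, which oxidise methylated cytosine. Counts over the list therefore mix genes that work for and against silencing. All 30 were tested and 0 had a limma adjusted p under 0.05, where calls were 0.0885% lower and 0.0817% higher over all genes, and the median log2 fold change was 0.02 (range -0.29 to 0.66). At an unadjusted p under 0.05, 0 were lower and 2 (6.67%) were higher, against 3.00% of all genes, and 4 (13.3%) were higher without overlap, against 5.46%. TRIM28, the scaffold that KRAB domains bind, had a log2 fold change of -0.07 (adjusted p = 1.0 by limma), and SETDB1, the H3K9 methyltransferase it recruits, had one of 0.16 (adjusted p = 1.0 by limma). TASOR, a subunit of the HUSH silencing complex, had 2332, 2121 and 2530 in WT and 2893, 2849 and 3140 in POLDIP2 KO, a log2 fold change of 0.35 (adjusted p = 0.499 by limma). The other HUSH genes listed went both ways with overlapping libraries: MPHOSPH8 had 0.20, PPHLN1 -0.10 and MORC2 -0.29. TET3, an enzyme that oxidises methylated cytosine, had 953.2, 890.0 and 970.0 in WT and 1193, 1114 and 1180 in POLDIP2 KO, a log2 fold change of 0.31 (adjusted p = 0.586 by limma). The DNA methyltransferases DNMT1, DNMT3A and DNMT3B had log2 fold changes of 0.09, -0.11 and -0.19 with overlapping libraries. EHMT2 was listed at 0 in replicates 2 and 3 of both lines, so no fold is given for it.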

How the data were processed

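Per the labels and the methods, the authors used Salmon 1.8 for transcript abundance, tximport for gene totals (GRCh38) and DESeq2 1.34.0 for normalisation and differential expression. The deposited signal is 1 normalised count per gene and library for 37902 genes; 0 columns were left out. Symbols and positions came from GENCODE release 44 (34152 genes matched), and promoter sequences from RefSeq.

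Reads were recovered by dividing each column by its smallest step, which left whole values within 0.001. The step is near 1 for WT replicate 2 and for POLDIP2 KO replicate 3, where whole values say little. The exact interval of the ZNF135 read ratio covers counting error only. The 95% intervals of log2 fold changes come from limma and reflect the spread between libraries. All 14684 genes with a mean of at least 10 were fitted with limma 3.58.1 (R 4.3.3; eBayes with trend, prior degrees of freedom 3.02) on log2(normalised count + 1), which understates the change of low genes, with Benjamini-Hochberg adjustment over all of them. Calls needed an adjusted p under 0.05 and a fold over 1.5. Same-numbered libraries correlated at 0.315, 0.138 and 0.13 after centring within lines, each over 0.1, so the number was used as a block in an alternative. WT replicate 3 correlated with POLDIP2 KO replicate 2 as well (0.147), and the other unlike pairs at -0.259 to -0.0028. Other alternatives were edgeR 4.0.16 and DESeq2 1.42.0 on recovered reads, pseudocounts of 0.5 and 5, other filters, normalisations and eBayes settings, and each library left out. The fits were tested on simulated data.

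Fingers were counted by the C2H2 spacing in the canonical coding sequence. Named members were ZNF135 and ZNF350 with their neighbours, members called with or without the block, the 10 with the smallest p in each direction, the most abundant per kb in each cluster, and those nearest the level limit; ZNF813, ZNF585B, ZNF17, ZNF836, ZNF528 and ZNF580 were added after their values were seen, as were the genes of the closing section. The members and all lists were chosen with earlier results of these data known. ZNF546, ZNF780B and ZNF780A were not used here. For the list of cell type markers, 1 gene is not reported here.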

Additional observations from a re-analysis of the deposited data

How the results depend on the processing

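The number of members called lower in POLDIP2 KO was 1 in the main limma test, 7 with DESeq2 and with DESeq2 and the replicate block, and 0 with edgeR, with edgeR and the replicate block, with a mean of at least 50, with no filter, with quantile normalisation, and whenever 1 library was left out (0 to 0), where ZNF350 had adjusted p values of 0.0942 to 0.188. With the replicate block in limma it was 1, a different member (ZNF677). With DESeq2 the block left the count at 7 but exchanged ZNF135 (adjusted p = 0.0317 without it, 0.0563 with it) for ZNF471 (0.103 and 0.0378). Members higher at an unadjusted p under 0.05 numbered 1 in the main test, 2 without the trend, 0 with DESeq2 (also under the block), edgeR, robust eBayes, a mean of at least 50, no filter and a pseudocount of 5, and 0 to 1 with a library left out. For replicate 1 against replicates 2 and 3, the counts at an unadjusted p under 0.05 were 5 lower and 13 higher with DESeq2, and 1 to 8 lower and 8 to 16 higher with a library left out (1 and 8 without POLDIP2 KO replicate 1); 2 were called higher with DESeq2 and 1 with a mean of at least 50. Members lower without overlap numbered 24 to 38 and those higher 5 to 9 with a library left out, where fewer libraries have to separate. The shares over all genes with a library left out are not given, for overlap or for replicate 1. These counts therefore cannot be set against a background. The median log2 fold change of the members was -0.0813 with quantile normalisation and -0.146 to -0.0813 with a library left out. The causes were not tested beyond these constructions. Under the replicate block no other call of a member changed between the lines, and 0 results reversed. Overlap has no separate value under another pseudocount, eBayes setting, edgeR or DESeq2. With neighbouring starts over 0.5 Mb apart there were 14 clusters in place of 11. Depth limits the members under 50 most: for ZNF135 the POLDIP2 KO libraries held 3, 1 and 3 reads.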

Other observations

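Zinc finger loci of 19q outside the 158 members were also read. The 6 tested loci with ZNF symbols that are not protein-coding all had log2 fold changes below 0, against 50.1% of all genes tested, with a median of -0.79. Of the 6, 2 were lower without overlap, against 5.44% of all genes. Their median log2 difference of replicate 1 from the mean of replicates 2 and 3 was 0.74. ZNF702P, a pseudogene, had 161.5, 92.3 and 115.9 normalised counts in the WT libraries (replicates 1 to 3) and 60.3, 31.7 and 71.5 in POLDIP2 KO, without overlap, a log2 fold change of -1.20 (SE 0.384, adjusted p = 0.531 by limma). ZNF542P had 456.3, 374.3 and 392.6 in WT and 329.7, 263.8 and 289.0 in POLDIP2 KO, also without overlap, a log2 fold change of -0.47 (adjusted p = 0.610 by limma). The other 4, ZNF321P, ZNF818P, ZNF781 and ZNF137P, had values of -0.20 to -1.08 with overlapping libraries. Pseudogenes resemble coding relatives in sequence, so the division of reads between them and those genes is uncertain.

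The 9 tested protein-coding zinc finger genes of 19q under other symbols had a median log2 fold change of -0.01. ZFP28 had 394.9, 406.4 and 499.1 in WT and 344.5, 310.2 and 327.7 in POLDIP2 KO, without overlap, a log2 fold change of -0.40 (adjusted p = 0.717 by limma). ZSCAN5A was also lower without overlap, with a log2 fold change of -0.72 (adjusted p = 0.793 by limma), and the other 7 had overlapping libraries.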
